A study of Mus musculus with 5 samples.

Results

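The genes described here belong to 8 gene families named for the testis or the sperm cell, in mouse embryonic stem cells with and without a super-enhancer of the pluripotency gene Nanog. They were chosen by symbol as every gene of the exon-count table whose name starts with Catsper, or with Tex, Spata, Spag, Tssk, Tekt, Dnah or Odf followed by a digit, leaving out Tex101. This gave 58 of the table's 24538 genes, a total made up of 10855 symbols and 13683 identifiers from transcript assembly. The compared groups were 2 libraries of cells labelled "-45 SE deleted" (deleted 1 and 2) and 3 libraries of wildtype cells (wildtype 1 to 3), all described as murine embryonic stem cells. Per the labels' protocols the cells were grown in 6-well plates and received ethanol or 4-hydroxytamoxifen for 6 days, but no label says which library received which agent. The labels name neither the strain nor the clone, and nothing in them says that the libraries of a group came from separate cultures, so the tests weigh differences against a spread that may be technical.

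Sperm swim by means of a flagellum built around an axoneme, a ring of microtubule doublets with a central pair, along which dynein motors make neighbouring doublets slide. The Dnah genes encode the heavy chains of these axonemal dyneins, the tektins (Tekt) are filament proteins of the doublets, several Spag proteins belong to the central apparatus, the Odf proteins sheathe the axoneme as outer dense fibres, and CatSper is the calcium channel of the sperm tail. The Tssk kinases act after meiosis, while Tex and Spata are collective names for genes found through their testis expression, some of which act in meiosis.

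Totals of exon-bin counts were 93574609 and 99134363 in the deleted libraries and ran between 114838600 and 213042746 in the wildtype ones. A level is given in CPM, counts relative to library size after TMM scaling, and 1 count was worth between 0.00463 and 0.0107 CPM. Wildtype 3, the deepest library, stood apart from wildtype 1 and 2, by a median log2 difference of 0.35 in the 355 tested genes of over 40 bins, a class that holds the 5 tested Dnah genes. In the same genes the median log2 fold change of deleted over wildtype was 0.07. Rows under a symbol held only 0.328% to 0.375% of the counts of a library, and the rest lay under assembly identifiers. Genes filed only under an assembly identifier could not be named, and of 122 protein-coding genes of these families in the GENCODE annotation, 57 had a row under their symbol and 65 did not. The 65 were not analysed here. No row carried the symbol of any of 16 stem cell markers that were looked for, Pou5f1, Sox2 and Nanog included, so neither the labelled cell type nor the deletion could be checked against its own genes.

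Of the 58 genes, 15 had enough counts for a test, 3 of them higher and 2 lower in the deleted cells at edgeR adjusted p under 0.05. Higher were Dnah1, an inner-arm dynein heavy chain gene, Spag4, which encodes a nuclear-envelope SUN protein of spermatids, and Tex12, a gene of the synaptonemal complex. Lower were Dnah6, another inner-arm dynein heavy chain gene, and Spata31d1b, a member of the tandemly repeated Spata31 family. Across all tested genes with a symbol 32.1% were called, 19.0% higher and 13.1% lower, and of all tested genes 39.7%, 20.0% higher and 19.7% lower, so 5 of 15 (33.3%) is close to the share among symbols. In 4 of the 15 both deleted libraries lay above all wildtype ones, as in 32.8% of tested symbols, and in 3 both lay below, as in 24.2%. The median log2 fold change of the 15 was −0.03, against 0.07 over all 3591 tested symbols, and the differences ran from −1.06 to 0.95. All 5 calls held without wildtype 3, a setting in which the share called among all tested genes rose from 39.7% to 51.9%. Only the call of Dnah6 held whichever library was left out.

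The sequences around the transcription starts of the 5 called genes are shown first because the dynein genes Dnah1 and Dnah6 moved in opposite directions, and Spata31d1a is added as the nearest copy of Spata31d1b. Each is the RefSeq window of the build GRCm38.p6, 250 bases before to 50 after the annotated start, printed 5′ to 3′ on the gene's strand. Capitals mark exact matches on either strand to TCCCGC (E2F), CACGTG (E-box), TGACGT (the core of the cAMP response element) and GTTGCC (one arm of the X-box bound by RFX factors).
Dnah1, chr14:31323847-31324146 (- strand): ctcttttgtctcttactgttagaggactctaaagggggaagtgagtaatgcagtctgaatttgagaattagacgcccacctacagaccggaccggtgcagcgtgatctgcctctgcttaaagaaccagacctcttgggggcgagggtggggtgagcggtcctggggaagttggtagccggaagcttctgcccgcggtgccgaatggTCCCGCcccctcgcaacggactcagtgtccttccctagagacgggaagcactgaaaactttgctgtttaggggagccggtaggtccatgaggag
Spag4, chr2:156064963-156065262 (+ strand): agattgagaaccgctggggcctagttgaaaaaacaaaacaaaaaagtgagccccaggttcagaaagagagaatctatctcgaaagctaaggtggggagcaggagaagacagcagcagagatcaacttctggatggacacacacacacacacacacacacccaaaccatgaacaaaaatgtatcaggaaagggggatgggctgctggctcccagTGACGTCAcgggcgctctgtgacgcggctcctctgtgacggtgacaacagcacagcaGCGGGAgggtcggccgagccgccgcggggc
Tex12, chr9:50561219-50561518 (- strand): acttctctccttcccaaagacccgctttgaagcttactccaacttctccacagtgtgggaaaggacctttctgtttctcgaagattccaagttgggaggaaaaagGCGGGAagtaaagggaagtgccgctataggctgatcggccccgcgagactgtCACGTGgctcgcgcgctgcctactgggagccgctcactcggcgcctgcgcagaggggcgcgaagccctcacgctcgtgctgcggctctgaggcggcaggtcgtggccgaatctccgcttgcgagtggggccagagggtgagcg
Dnah6, chr6:73221582-73221881 (- strand): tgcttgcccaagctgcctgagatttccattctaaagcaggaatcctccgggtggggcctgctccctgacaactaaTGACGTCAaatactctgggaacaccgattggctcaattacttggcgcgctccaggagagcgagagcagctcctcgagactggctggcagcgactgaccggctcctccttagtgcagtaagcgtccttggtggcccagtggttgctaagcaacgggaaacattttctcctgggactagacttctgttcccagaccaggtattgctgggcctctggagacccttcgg
Spata31d1b, chr13:59712034-59712333 (+ strand): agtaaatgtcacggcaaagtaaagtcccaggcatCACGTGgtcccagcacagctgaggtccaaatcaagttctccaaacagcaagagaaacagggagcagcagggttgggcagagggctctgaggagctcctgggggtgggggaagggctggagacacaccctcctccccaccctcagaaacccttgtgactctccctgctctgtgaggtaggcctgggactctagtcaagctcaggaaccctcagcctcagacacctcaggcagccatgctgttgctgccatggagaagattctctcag
Spata31d1a, chr13:59706148-59706447 (- strand): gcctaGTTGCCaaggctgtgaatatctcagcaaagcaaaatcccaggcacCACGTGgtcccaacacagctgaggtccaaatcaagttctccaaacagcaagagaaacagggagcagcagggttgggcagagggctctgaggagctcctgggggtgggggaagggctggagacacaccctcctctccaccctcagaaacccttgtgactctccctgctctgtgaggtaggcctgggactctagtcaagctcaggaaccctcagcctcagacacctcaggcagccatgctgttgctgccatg

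In the Spag4 and Dnah6 windows, TGACGT matched on both strands with an overlap, which together spell TGACGTCA. Spag4 was higher and Dnah6 lower in the deleted cells. Those 8 letters stood in 3 of the 54 windows of these families (5.56%) and in 1.79% of all 32851 windows. TCCCGC matched in Dnah1, and on the opposite strand in Tex12 and Spag4, and CACGTG matched in Tex12. A match is a description of letters and not a shown binding site. Whether the counted RNA began at these annotated starts was not tested. In Dnah6, 78.4% of the counts fell in bins 22 to 36 of 77, and in Dnah1 bins 22 to 66 of 78 held 5 of 471 counts. The windows of Spata31d1a and Spata31d1b were identical at 92.0% of 300 bases, both with CACGTG and the first also with GTTGCC, while Spata31d1d, another copy, was identical to Spata31d1a at 68.0%. Of the 58 genes, 48 had an entry. Among these 48, GTTGCC occurred in 15 (31.25%), against 14.14% of all 27025 symbols with an entry. TCCCGC occurred in 10.42% against 22.05%, CACGTG in 10.42% against 8.09% and TGACGT in 12.5% against 8.37%. The low share of TCCCGC lay in the untested genes, at 3.03%, while the 15 tested genes had 26.67% and all tested symbols 31.72%. In the 15 tested genes CACGTG and TGACGT each occurred in 20.0%, against 8.885% and 7.443% of tested symbols. GTTGCC occurred in 33.33% of them, against 15.55%. Several genes have more than 1 window, and those of Tex35 overlap each other. The ratio of observed to expected CpG had a median of 0.199 over the 54 windows and 0.384 over all windows. It was 0.446 in the 15 tested genes, 0.166 in the untested ones and 0.493 in the windows of all tested symbols.

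Summed over the 58 genes, the level was 10.4 and 10.5 CPM in deleted 1 and 2, and 10.3, 9.77 and 11.1 CPM in wildtype 1, 2 and 3, so the groups overlapped. The Dnah, Spag, Tex and Spata genes made up nearly all of it. The Dnah genes summed to 2.59 and 2.72 CPM in deleted cells, against 3.01, 2.75 and 3.04 CPM in wildtype cells, a narrow gap. The Spag genes summed to 2.43 and 2.65 CPM in deleted cells, above the 1.90, 1.81 and 1.91 CPM of wildtype cells. The Tex genes gave 2.78 and 2.47 CPM in deleted cells and 2.37, 2.10 and 1.93 CPM in wildtype cells, again without overlap. The Spata genes gave 2.16 and 2.26 CPM in deleted cells and 2.62, 2.63 and 3.75 CPM in wildtype cells, with wildtype 3 well above the rest. No test was made of these sums, each of which rests on a few genes and leaves out family genes without a row under their symbol. Most of the Spag sum was Spag16, which was not called, at 1.82 and 2.04 CPM in deleted and 1.51, 1.51 and 1.58 CPM in wildtype cells. Among single tested symbols, 57.0% had groups without overlap. In bulk RNA, fewer cells with a transcript and less transcript per cell cannot be told apart.

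**Figure D1:**
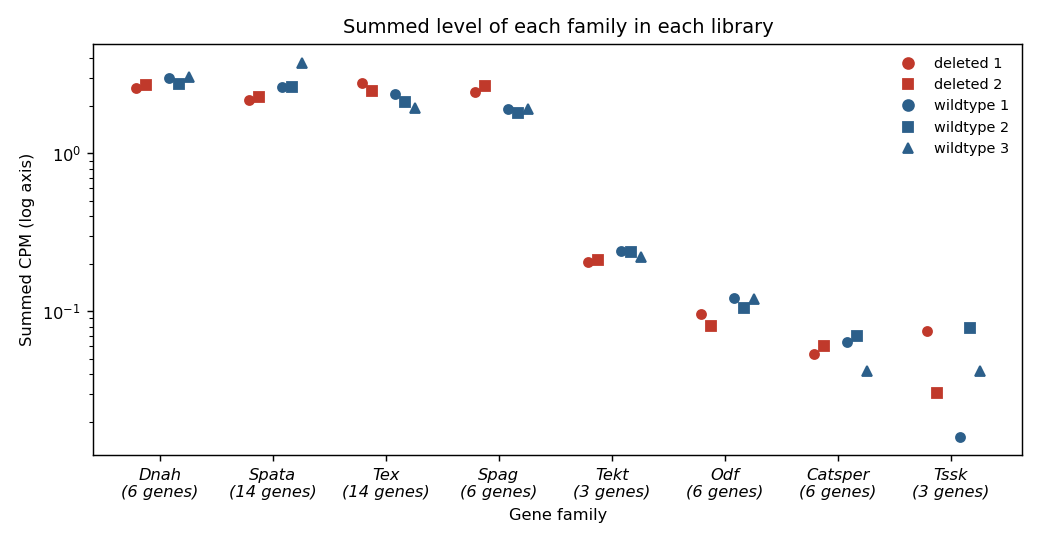
Summed CPM (log axis) of each of the 8 families in deleted 1 and 2 (red) and wildtype 1 to 3 (blue); each point is 1 library. Dnah, Spata, Tex and Spag lie between 1.81 and 3.75 CPM, and Tekt, Odf, Catsper and Tssk lie at or below 0.241 CPM in every library.

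The channel, outer dense fibre and kinase genes with a row under their symbol had few counts or none. None of the 6 Catsper, 6 Odf and 3 Tssk genes had enough counts for a test. Catsper1, a pore subunit of the channel, and Catsperb, an accessory subunit, had 0 counts in all 5 libraries, which allows at most 0.0321 CPM (3 counts) in the shallowest library and 0.0139 CPM in the deepest, for counting error only. The accessory subunit gene Catsperg1 was the most counted of its family, with 4 and 3 counts in deleted 1 and 2 and 1, 3 and 5 counts in wildtype 1 to 3. Among the kinases, Tssk4 led with 4 and 2 counts in deleted cells and 2, 6 and 4 in wildtype cells. Odf1, a core protein of the outer dense fibres, had 2 and 1 counts in deleted cells and 2, 3 and 6 in wildtype cells. Both deleted libraries were above the wildtype ones in Catsperg1 and the groups overlapped in Tssk4 and Odf1 once scaled to CPM. Counts this low allowed no test.

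Altogether 43 of the 58 genes were untested. Of these, 11 had no count in any library, 21 had 1 to 9 counts over the 5 libraries and 11 had at least 10. The most counted were Spata20, with 7 and 4 counts in deleted and 6, 5 and 23 in wildtype libraries, Spata9, with 3 and 7 against 6, 6 and 21, and Odf3b, with 3 and 6 against 11, 3 and 13. In all 3 genes the groups overlapped once scaled to CPM, and none exceeded 0.106 CPM in any library. Summed over the 43, the level was 0.525 and 0.585 CPM in deleted cells and 0.498, 0.499 and 0.634 CPM in wildtype cells, with wildtype 3 the highest.

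The axonemal dyneins moved both ways. Dnah6 had 0.536 and 0.686 CPM in deleted 1 and 2, against 1.38, 1.21 and 1.25 CPM in wildtype 1, 2 and 3. Every deleted library was below every wildtype one, with counts of 50 and 68 in deleted and 172, 138 and 271 in wildtype cells. The group means were 0.611 ± 0.106 CPM (SD, n = 2, deleted) and 1.28 ± 0.0906 CPM (SD, n = 3, wildtype). The difference was −1.06 ± 0.17 on the log2 scale (SE; adjusted p = 0.00122 by edgeR). It was the largest change among the 15 genes, in size, and the only one of the 5 calls to hold when any 1 library was left out.

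Dnah1 went the other way. It had 0.975 and 1.11 CPM in deleted 1 and 2 and 0.506, 0.604 and 0.639 CPM in wildtype 1, 2 and 3, with no overlap. The difference was 0.83 ± 0.17 on the log2 scale (SE; adjusted p = 0.00449 by edgeR), or 1.78-fold. Without deleted 2 it was 0.71 and did not pass (edgeR adjusted p = 0.0572). Per kilobase of annotated exon the mean levels of Dnah1 were 0.0800 CPM in deleted and 0.0447 CPM in wildtype cells. Those of Dnah6 were 0.0461 and 0.0967 CPM, so the order of the pair by this measure was reversed between the groups. The length is that of all annotated exons, many of which had few or no counts, so these values do not rank the 2 transcripts.

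The remaining dyneins did not pass. Dnah5, the outer-arm heavy chain gene often mutated in human primary ciliary dyskinesia, had 0.225 and 0.121 CPM in deleted cells against 0.121, 0.184 and 0.222 CPM in wildtype cells. Its difference was −0.07 ± 0.39 on the log2 scale (SE; adjusted p = 0.900 by edgeR). The inner-arm genes Dnah7a and Dnah7b had log2 fold changes of −0.09 ± 0.25 and −0.14 ± 0.24 (SE; edgeR adjusted p = 0.805 and 0.672). The groups overlapped in all 3 genes. In Dnah7b the last of 66 bins held 57.6% of the counts, and in Dnah7a the 2 most counted of 66 bins held 48.8%. Dnah7a and Dnah7b are copies, 30.6% of the 50-base stretches of the Dnah7a transcript occurring unchanged in Dnah7b, so reads may have been divided between them. Summed, the pair had −0.12 (edgeR adjusted p = 0.624). Dnah9, an outer-arm gene, had 3 and 0 counts in deleted and 1, 1 and 5 in wildtype libraries and was not tested.

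**Figure D2:**
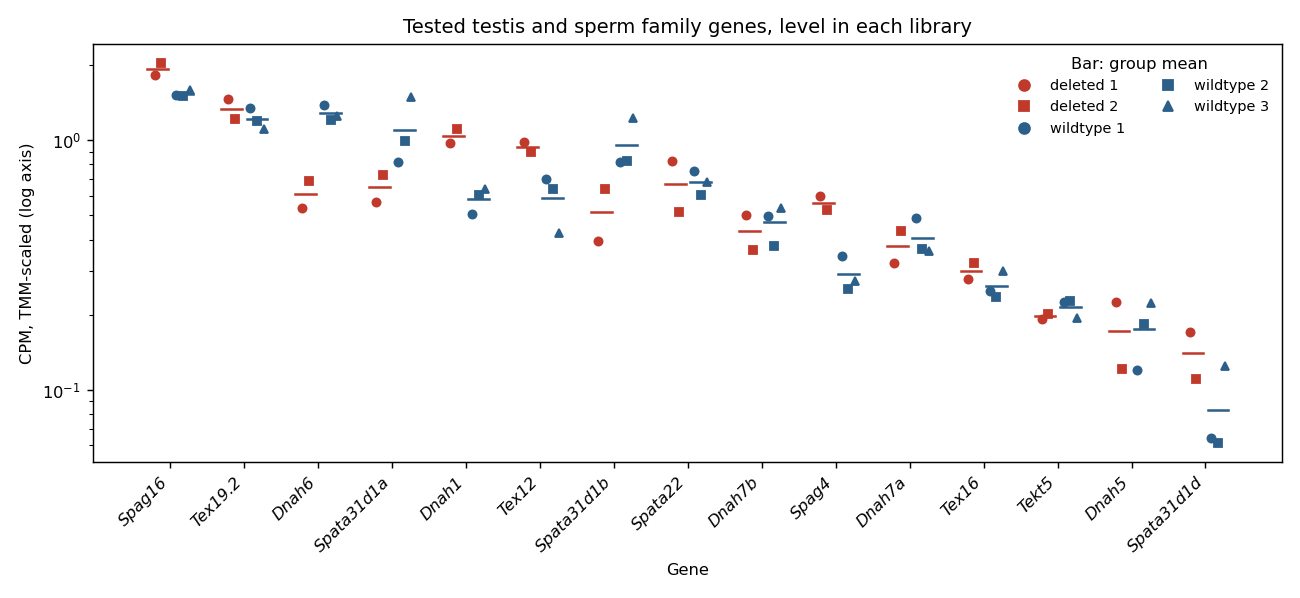
CPM (log axis) of the 15 tested genes, ordered by level, in deleted 1 and 2 (red) and wildtype 1 to 3 (blue), with bars at group means. Deleted points lie above all wildtype points in Spag16, Dnah1, Tex12 and Spag4, and below them in Dnah6, Spata31d1a and Spata31d1b.

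The counts of both changed dyneins came mostly from a stretch of their exons, and those of the uncalled Dnah7a and Dnah7b were uneven too. Dnah1 has 78 bins in the table, and 89.2% of its 471 counts fell in bins 1 to 21, against 5 counts in the 45 bins from 22 to 66. In bins 1 to 21 there were 82 and 97 counts in deleted and 59, 62 and 120 in wildtype libraries, or 0.879 and 0.979 CPM in deleted against 0.474, 0.543 and 0.555 CPM in wildtype cells. The last 12 bins had 8 and 9 counts in deleted and 4, 7 and 18 in wildtype libraries. Over the whole gene, 31 of the 37 bins with counts had a higher mean in deleted cells. Such tallies, here and for Dnah6, Spag4 and Tex12, use the same bins as the tested sum and are not separate evidence.

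Dnah6 was likewise uneven. Bins 22 to 36 of its 77 bins held 78.4% of its 699 counts, at 0.461 and 0.515 CPM in deleted against 1.11, 1.03 and 0.916 CPM in wildtype cells. Bins 1 to 21 had 1 and 6 counts in deleted libraries, against 29, 15 and 52 in wildtype libraries. The 41 bins from 37 on did not share the difference, with 0.0643 and 0.111 CPM in deleted and 0.0402, 0.0438 and 0.0972 CPM in wildtype cells, from 48 counts in all. Of its 57 bins with counts, 44 had a lower mean in deleted cells. The shortest run of neighbouring bins with 80% of the counts spanned 21.8% of the bins in Dnah1 and 22.1% in Dnah6. The median of this share was 61.1% over the 28 tested symbols with at least 60 bins and 100 counts. Of these, 1 symbol was below Dnah1, and 2, Dnah1 included, were below Dnah6. The 28 include the 5 tested Dnah genes. Dnah7a had 98.5%, since its most counted bins lie at both ends of the bin numbering. The stretches were chosen after the counts were seen. The table gives bins no coordinates, and whether transcripts of the full motor proteins were measured was not tested. In the GENCODE annotation, exons of Dnah1 and Dnah6 overlap antisense genes, Gm35823 and Gm20560, neither of which has a row under its symbol. Without a stated strand, reads from such partners cannot be told apart.

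**Figure D3:**
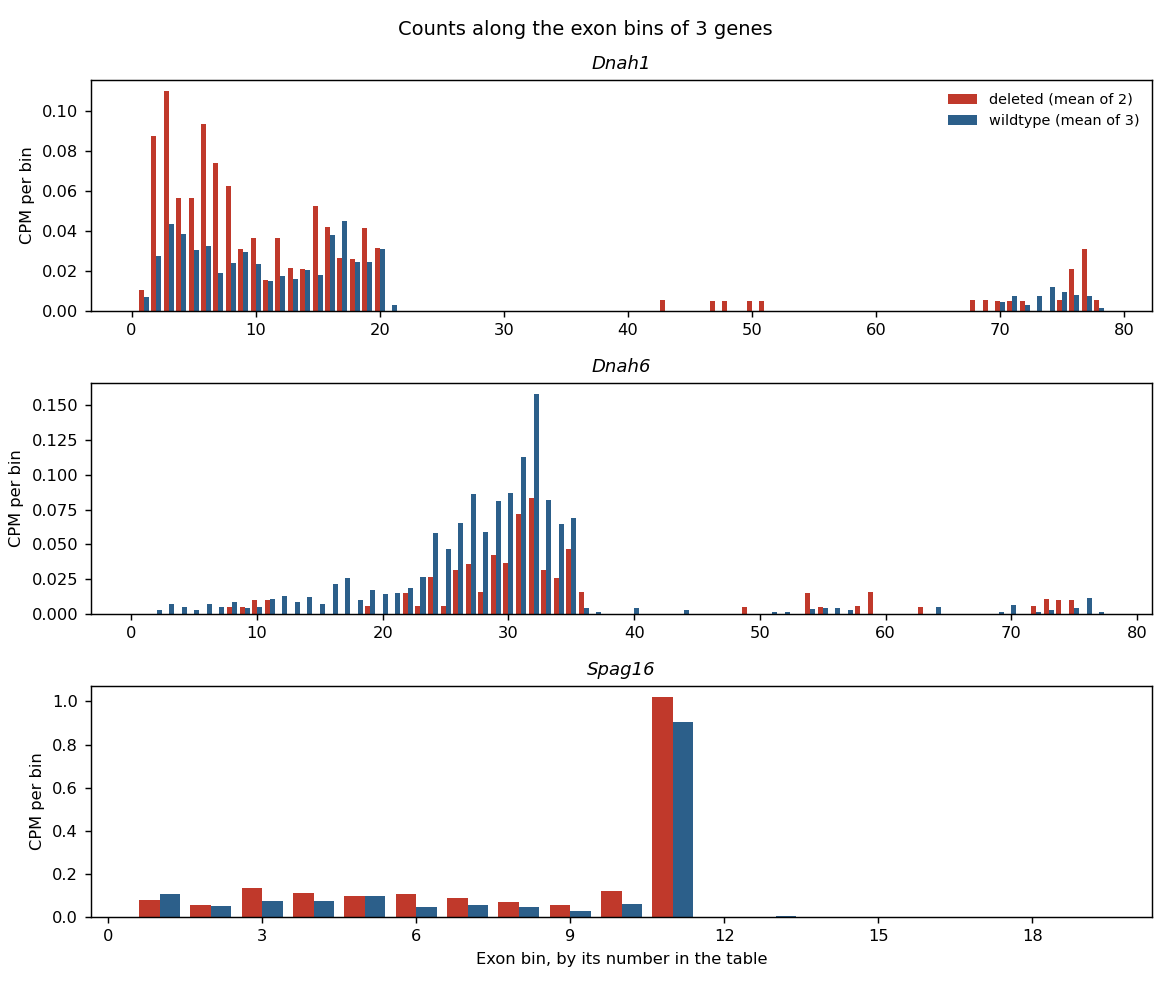
Mean CPM in each exon bin of Dnah1, Dnah6 and Spag16, numbered as in the table, for deleted (red, 2 libraries) and wildtype cells (blue, 3 libraries). Counts gather in bins 1 to 21 of Dnah1 with the deleted bars mostly higher, in bins 22 to 36 of Dnah6 with the deleted bars lower, and in bins 1 to 11 of Spag16, of which bin 11 holds 56.6%.

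Among the sperm-associated antigens, Spag4 was higher in the deleted cells. It had 0.600 and 0.525 CPM in deleted 1 and 2, against 0.346, 0.254 and 0.273 CPM in wildtype 1, 2 and 3. The groups did not overlap, and the difference was 0.95 ± 0.22 on the log2 scale (SE; adjusted p = 0.00793 by edgeR). Counts were spread over all 12 of its bins, 10 of them higher on average in deleted cells, with no bin above 13.0% of the total. Without deleted 1 the log2 fold change was 0.85 and did not pass (edgeR adjusted p = 0.0729).

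Spag16, a component of the axonemal central apparatus, was the most abundant of the 15 by CPM. It had 1.82 and 2.04 CPM in deleted cells against 1.51, 1.51 and 1.58 CPM in wildtype cells. Although the groups did not overlap, as was the case for 57.0% of all tested symbols, its log2 fold change of 0.33 ± 0.12 (SE) narrowly missed the threshold (edgeR adjusted p = 0.0531), and leaving out wildtype 3 took it past (0.35; edgeR adjusted p = 0.0459). Scaling factors from the assembly identifiers alone also did (0.34; edgeR adjusted p = 0.0488). Over all its alternatives the adjusted p ran from 0.0459 to 0.332. Bins 1 to 10 had 0.900 and 0.919 CPM in deleted cells, against 0.699, 0.525 and 0.662 CPM in wildtype cells. Bin 11 alone held 608 of 1074 counts, at 0.922 and 1.12 CPM in deleted against 0.812, 0.980 and 0.916 CPM in wildtype cells, and here the groups overlapped. Bins 12 to 19 held 1 count in all 5 libraries, and without coordinates their place in the gene is not known.

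Meiosis genes of the set gave 1 call. Tex12, which builds the central element that joins paired chromosomes, had 0.986 and 0.898 CPM in deleted 1 and 2, against 0.699, 0.639 and 0.426 CPM in wildtype 1, 2 and 3. Both deleted libraries were above all wildtype ones, of which wildtype 3 was the lowest. All 5 bins of Tex12 had a higher mean in deleted cells. The difference was 0.71 ± 0.23 on the log2 scale (SE; adjusted p = 0.0329 by edgeR). This call ended without deleted 1, deleted 2 or wildtype 2 (edgeR adjusted p = 0.175, 0.110 and 0.0538). It also ended when its most counted bin was left out (0.53; edgeR adjusted p = 0.201). Per kilobase of exon the mean level of Tex12 was 0.927 CPM in deleted and 0.579 CPM in wildtype cells. For Tex19.2 it was 0.655 and 0.596 CPM. The wildtype mean of Tex12 fell just below that of Tex19.2 only through wildtype 3. In wildtype 1 and 2 Tex12 was above Tex19.2, as in the deleted cells. Spata22, which acts with Meiob in meiotic recombination, had 0.825 and 0.515 CPM in deleted against 0.756, 0.604 and 0.680 CPM in wildtype cells. Its difference of −0.03 ± 0.22 on the log2 scale (SE; adjusted p = 0.934 by edgeR) did not pass, and the 2 deleted libraries lay at either end of the range. An annotated gene, Gm49340, shares exon sequence with it on the same strand.

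The Spata31d1 copies lie on chromosome 13. Spata31d1b had 0.397 and 0.636 CPM in deleted 1 and 2, against 0.820, 0.823 and 1.23 CPM in wildtype 1, 2 and 3, a difference of −0.91 ± 0.27 on the log2 scale (SE; adjusted p = 0.0301 by edgeR). Without deleted 1 it was −0.61 (edgeR adjusted p = 0.202). Spata31d1a had 0.568 and 0.727 CPM in deleted cells and 0.820, 0.989 and 1.49 CPM in wildtype cells, a difference of −0.79 ± 0.29 (SE) that did not pass (edgeR adjusted p = 0.0666). Leaving out wildtype 1 gave −0.98 (edgeR adjusted p = 0.0242), and DESeq2 on all 5 libraries gave an adjusted p of 0.0360, both past the threshold. Without wildtype 3 the value was −0.48 (edgeR adjusted p = 0.0594) and without deleted 1 it was −0.63 (edgeR adjusted p = 0.317), neither past it. In both genes the groups did not overlap, and wildtype 3 was the highest library. Of the 50-base stretches of the Spata31d1b transcript, 24.9% occur unchanged in Spata31d1a, and 1 bin held 91.3% of the counts of Spata31d1b and 92.0% of those of Spata31d1a. Values of the single copies are therefore uncertain, and their summed counts gave −0.84, which did not pass (edgeR adjusted p = 0.0522). Spata31d1d, which shares no 50-base stretch with either, had 16 and 11 counts in deleted and 8, 7 and 27 in wildtype libraries. It met the low-count filter through the deleted libraries, with 1 wildtype library over the floor, and its difference was 0.64 ± 0.45 on the log2 scale (SE; adjusted p = 0.297 by edgeR). Its exons overlap the antisense gene Gm46419.

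Of the remaining tested genes, Tex19.2, a germline gene of the Tex19 pair, was the second by CPM, with 1.47 and 1.21 CPM in deleted and 1.35, 1.20 and 1.11 CPM in wildtype cells. Its difference was 0.14 ± 0.15 on the log2 scale (SE; adjusted p = 0.502 by edgeR). Only 2.50% of the 50-base stretches of its transcript occur in that of its copy Tex19.1, which has no row under its symbol. Tekt5, a sperm tektin gene, had 0.193 and 0.202 CPM in deleted and 0.225, 0.228 and 0.194 CPM in wildtype cells. It had a difference of −0.11 ± 0.27 on the log2 scale (SE; adjusted p = 0.804 by edgeR). The X-linked Tex16 had 0.279 and 0.323 CPM in deleted and 0.249, 0.236 and 0.301 CPM in wildtype cells, a difference of 0.18 ± 0.25 on the log2 scale (SE; adjusted p = 0.609 by edgeR), and shares exon sequence with Gm45194 on the same strand. In all 3 the groups overlapped.

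**Figure D4:**
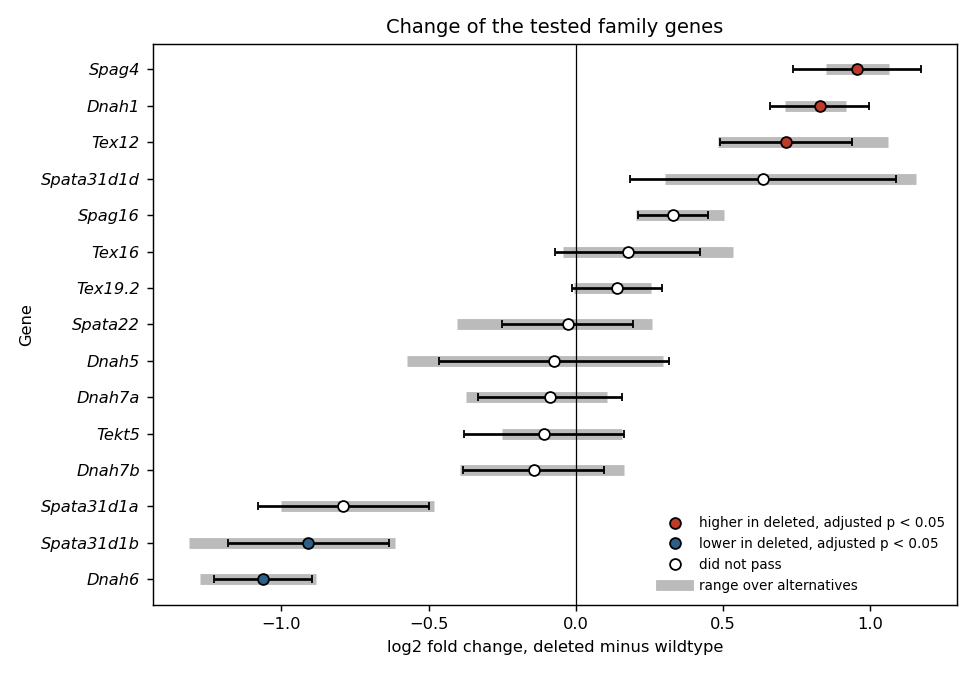
Log2 fold change, deleted minus wildtype, of the 15 tested genes with SE bars; filled points passed edgeR adjusted p under 0.05 and grey bands span the alternative settings. Spag4, Dnah1 and Tex12 lie at 0.71 to 0.95, Dnah6 and Spata31d1b at −1.06 and −0.91, and the bands of the 7 genes from Tex16 down to Dnah7b reach across 0.

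The 5 called genes lay on 5 chromosomes. Dnah1 lies on chromosome 14, Spag4 on 2, Tex12 on 9, Dnah6 on 6, which also carries Nanog, and Spata31d1b on 13. The median log2 fold changes of all tested symbols on these chromosomes were −0.09, −0.07, 0.03, 0.10 and −0.04, in that order. Chromosome 8, where the median was 0.52, holds 5 of the 58 genes, of which 0 were tested.

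Lists of related genes, chosen with earlier results known, gave mixed directions as well. Of 31 other axoneme genes with rows, 22 were tested, with 4 higher and 1 lower (22.7% called, against the 32.1% of symbols) and a median log2 fold change of 0.21. Wdr63, an inner-arm dynein intermediate chain gene, had 0.718 and 0.565 CPM in deleted against 0.193, 0.219 and 0.213 CPM in wildtype cells, a difference of 1.61 ± 0.22 on the log2 scale (SE; adjusted p = 0.000533 by edgeR). Drc1, of the nexin-dynein regulatory complex, and Rsph9, of the radial spoke head, rose by 0.71 ± 0.15 and 1.10 ± 0.26 on the log2 scale, while Ak8, an adenylate kinase of the axoneme, fell by 0.67 ± 0.18. Foxj1, the master regulator of motile cilia, had 0.664 and 0.626 CPM in deleted and 0.611, 0.945 and 0.935 CPM in wildtype cells (edgeR adjusted p = 0.213).

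Of 64 genes of sperm structure and fertilization with rows, 48 were too low to test and 18 of those had no count. Of the 16 tested, 4 were higher and 2 lower (37.5%), with a median log2 fold change of 0.20. Izumo4, of the family of the sperm fusion protein Izumo1, had 0.397 and 0.434 CPM in deleted against 0.129, 0.131 and 0.130 CPM in wildtype cells, a log2 fold change of 1.67 ± 0.24. Kcnu1, the sperm potassium channel gene on chromosome 8, had 1.26 ± 0.21. That chromosome, where the median log2 fold change of all tested symbols was 0.52, also holds another of the 4 higher genes. Adam1a and Adam1b, of the ADAM family of fertilin, had −1.63 ± 0.25 and −2.30 ± 0.59, the second with at most 0.0429 CPM in a deleted library. Of 21 tested meiosis and spermatogonial genes (26 had rows), 4 were higher and 2 lower (28.6%), with a median log2 fold change of 0.20. Asz1, of the piRNA pathway, and the testis antigen gene Mageb4 rose by 3.04 ± 0.19 and 1.31 ± 0.14 on the log2 scale. The piRNA genes Piwil1 and Tdrd1 went opposite ways, at 0.83 ± 0.17 and −0.39 ± 0.11. All 12 genes named here as rising or falling had edgeR adjusted p of 0.0208 or lower.

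Markers of some other cells moved with the groups too. For comparison, 19.0% of all tested symbols were called higher and 13.1% lower. Of 17 two-cell-like markers, 14 had rows, and their summed level was 17.6 and 17.2 CPM in deleted against 3.09, 3.26 and 2.97 CPM in wildtype cells, and all 11 tested were higher, 5 of them in the test only through the deleted libraries. The 15 fibroblast markers with rows summed to 14.4 and 14.3 CPM in deleted and 10.1, 10.6 and 13.4 CPM in wildtype cells. Of the 8 tested, 5 were higher, 1 of them (Col6a1) in the test only through the deleted libraries. Fbn1 led the sum, with means of 6.17 CPM in deleted and 5.53 CPM in wildtype cells, and was not called. Twist1, at −0.17 on the log2 scale, was not called either. Col3a1, Prrx1, Dcn, Postn and Lum had 12, 11, 3, 1 and 1 counts over the 5 libraries and were not tested. The 10 Sertoli and Leydig markers with rows, led by Wt1 and Cyp11a1, summed to 2.21 and 2.39 CPM in deleted and 3.76, 4.10 and 3.81 CPM in wildtype cells, with 2 of 4 tested lower and the Leydig enzyme gene Hsd3b1 at 0. The 7 multiciliated-cell markers with rows summed to 3.03 and 2.94 CPM in deleted and 2.97, 3.46 and 3.64 CPM in wildtype cells, with 0 of 3 tested called (edgeR; 0 also at an unadjusted p under 0.05). Among them Sntn was at 0 and Mcidas at or under 0.0321 CPM. Their part in the values of the testis and sperm genes was not tested.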

How the data were processed

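Polyadenylated RNA was sequenced from 2 deleted and 3 wildtype libraries of mouse embryonic stem cells. The authors deposited whole-number counts per exon bin, not normalized, 1 column per library and 243771 bins. The submitters' processing notes list STAR and mm9 without a version. The annotation, the strand setting and how reads spanning several bins were counted are not stated there, so bin totals need not equal read numbers.

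Bin counts were summed per gene without the 56 spike-ins. Genes passed edgeR's filterByExpr (about 10 counts, or 0.0871 CPM, in at least 2 libraries), were scaled by TMM, and were tested across all 16259 genes with the robust quasi-likelihood test of edgeR 4.0.16 in R 4.3.3 with Benjamini-Hochberg adjustment over all of them. SE is the log2 fold change over the root of F. The procedure was tested on simulated data. Alternatives were other scalings, filters, DESeq2 1.42.0, limma-voom (limma 3.58.1), single bins, a replicate block and left-out libraries.

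Chromosomes and exon lengths came from GENCODE vM21 (GRCm38) for 57 of the 58 genes. Genes were named by rule: all called, the most abundant uncalled gene per family, the 3 uncalled of lowest p, the 3 most counted untested and up to 4 per list by p. Catsper1, Catsperb, Catsperg1, Tssk4, Odf1, Dnah5, Dnah7a, Dnah9, Spata22, Tex16 and the markers were added after their values were seen. The members, lists and tests were chosen with earlier results of these data known.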

Additional observations from a re-analysis of the deposited data

How the results depend on the processing

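Over the 14 to 16 settings in which each was tested, the calls of Dnah1, Dnah6, Spag4 and Spata31d1b each ended in 1 and that of Tex12 in 5. No called gene changed sign. When 1 library was left out, the number higher ran from 1 (without deleted 1, Dnah1; without deleted 2, Spag4) to 4 (without wildtype 3), and the number lower from 1 (without deleted 1) to 3 (without wildtype 1). All genes called ran from 3555 without deleted 1, and 4141 without deleted 2, to 8347 without wildtype 3. A lone deleted library was taken to share the wildtype libraries' spread. In the most counted bin alone 1 gene was higher and 1 lower, since Dnah1 and Spag4 were no longer tested and Dnah6 had −0.88 (edgeR adjusted p = 0.0967). Of 3 settings chosen after seeing the data, leaving out the most counted bin, under which no Spata31d1 copy was tested, and summing copies each left 1 lower gene, Dnah6, and a fit that was not robust left 2. Scaling by assembly identifiers alone added Spag16.

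Axoneme genes ran from 2 to 4 higher and 0 to 2 lower when 1 library was left out, sperm genes from 3 to 4 and 1 to 2, and meiosis genes from 2 to 4 and 0 to 2. In the most counted bin each list had 2 higher, with 0 axoneme and 1 meiosis gene lower. Without a filter 2 axoneme genes were lower, with 10 counts in every library 1 sperm gene, without the most counted bin 0 sperm genes, and with limma-voom 1 meiosis gene. The cause was not tested.

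The replicate numbers were not treated as pairs, since no label says that a number marks a shared culture. Same-numbered deviations correlated at 0.0536 and −0.0539. With 2 deleted libraries the deviations of 1 mirror those of the other, so these values cannot decide whether the numbers mark pairs. With a replicate block 8200 genes passed, 2 of the members higher and 3 lower, Dnah5 had 0.18, and Tex12 had 0.49 (edgeR adjusted p = 0.0512).

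Directions of uncalled genes turned when 1 library was left out, over −0.57 to 0.29 in Dnah5, −0.34 to 0.11 in Dnah7a, −0.39 to 0.058 in Dnah7b, −0.40 to 0.26 in Spata22 and −0.0053 to 0.25 in Tex19.2. They also turned without the most counted bin in Dnah5 (0.066), Dnah7b (0.16) and Spata22 (0.0063), and in the most counted bin alone in Tekt5 (0.16) and Tex16 (−0.043). Low counts limit all untested genes.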
